A study of Schmidtea mediterranea with 2 samples.

Results

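piwi-1 (SMED30007406) was followed over a planarian section as 1 of the 22150 genes that the deeper Syrah-processed count table lists. It was taken by its identifier, which the study's list of cell type genes gives for piwi-1. The choice was not made by a measured value, but earlier results of these data were known. piwi-1 encodes a PIWI protein of the Argonaute family, which works with small RNAs called piRNAs. In planarians it is the standard marker of neoblasts, the adult stem cells, which are the only dividing cells of the body outside the germ line and replace all cell types during turnover and regeneration. Neoblasts lie in the parenchyma between the organs and are absent from the pharynx and from the tip of the head.

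The tissue was fragments of Schmidtea mediterranea, embedded in OCT and cut with a cryostat onto 1 Slide-seqV2 puck. The labels name no strain, genotype, treatment, time or age. Such a puck is a layer of barcoded beads with known positions, and a bead can catch mRNA from several cells or from part of a cell, so fewer stem cells and less piwi-1 RNA per stem cell cannot be told apart. The 1 library was sequenced in run 1 and run 2, and each of the 4 tables counts UMIs (unique molecular identifiers, which mark single captured molecules) per gene and barcode. The tables hold run 1 or both runs, in the original version and after Syrah. Syrah corrects the barcode read for missing or substituted bases and joins duplicated barcodes, described at the end. There are therefore no replicates, no test between samples was possible, and each 95% interval given here covers counting error only.

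The tables hold 2461559 to 3364828 UMIs on 31731 to 38204 barcodes. Both tables with run 1 share all of their barcodes with the table of the same version that holds both runs, whereas 25807 barcodes are shared by the original and Syrah-processed tables with both runs. A bead was counted from 10 UMIs, and was called a tissue bead when at least 25% of the 50 nearest barcodes held 10 UMIs in the original version of run 1. The Syrah-processed table with both runs, used unless another is named, then had 7863 tissue beads with a median of 148 UMIs and 7200 beads off tissue with a median of 36 UMIs. All 20 other stem cell genes of the study's list (96 to 39218 UMIs) and all 14 of its intestine genes (132 to 20289 UMIs) were found on tissue beads.

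piwi-1 was found on 11.2% of tissue beads (877 beads, 95% exact binomial interval 10.5% to 11.9%). It made up 5.61 of every 10000 UMIs on these beads (95% exact Poisson interval 5.33 to 5.91). The level was 5.70 in the Syrah-processed table with run 1, 5.40 in the original table with both runs and 5.51 in the original table with run 1, all inside that interval. The share of positive beads was 10.9%, 9.90% and 9.86% in the same order, and the original tables were also shallower, with median depths of 123 and 120 UMIs per tissue bead. A positive tissue bead held 1.62 piwi-1 UMIs on average. Of the positive beads, 588 held 1 piwi-1 UMI, 176 held 2 and 113 held at least 3. The 31 beads with at least 5 piwi-1 UMIs carried 14.1% of the piwi-1 UMIs on tissue, and 4 beads held at least 10. Had the UMIs been spread in proportion to the depth of each bead, 1128 beads would have been positive, 51.6 would have held at least 3 and 3.80 at least 5. The piwi-1 UMIs were thus on fewer beads, with more UMIs on each, than bead depth alone gives.

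The richest bead held 15 piwi-1 UMIs among 2991 UMIs, and the next held 13 among 2596 and 11 among 1413. These 3 beads lay in the same tissue piece, the one with the number 7 on the map of piwi-1 UMIs. mat2a, the study's marker of intestinal cells, had 1, 0 and 0 UMIs on them. The bead with 13 piwi-1 UMIs held 3 UMIs of any gene in the original table with both runs, and the beads with 15 and 11 held the same piwi-1 counts in that table.

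**Figure D1:**
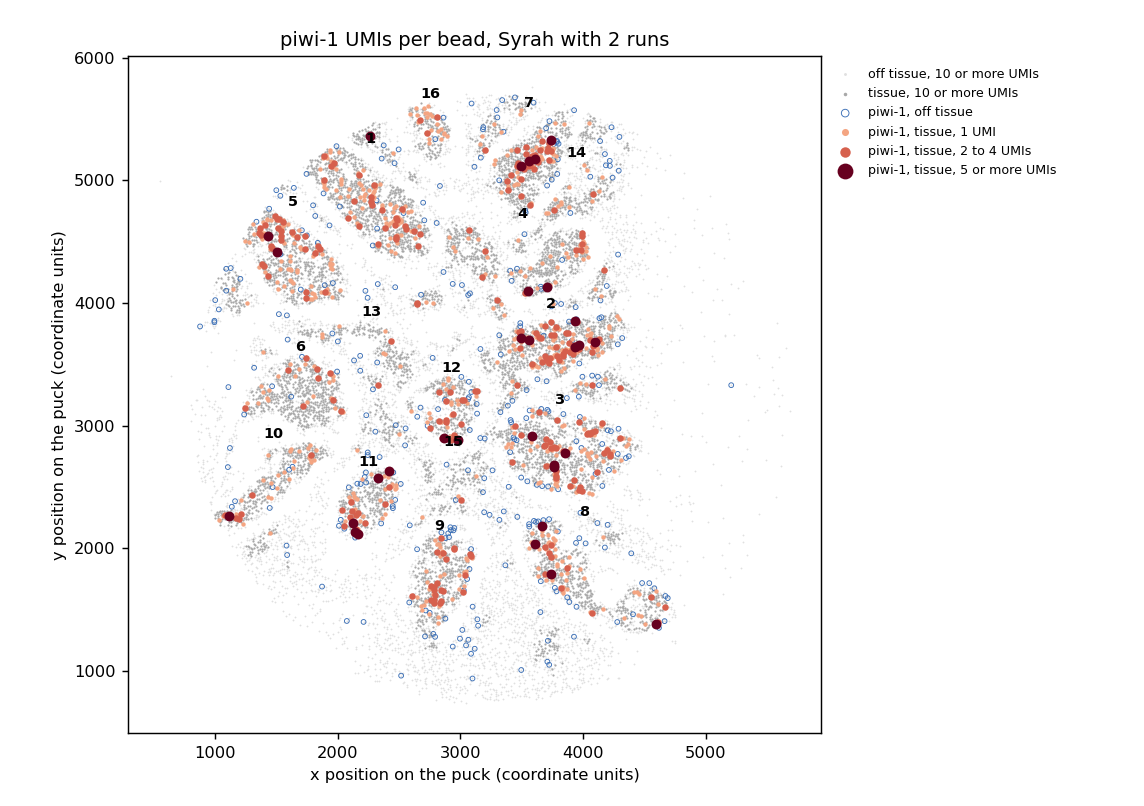
Positions of beads on the puck, in the coordinate units of the deposited file, for the Syrah-processed table with both runs. Grey points are beads with at least 10 UMIs, filled red points are tissue beads with piwi-1 by UMI count, open blue points are beads off tissue with piwi-1, and numbers mark the 16 tissue pieces; positive beads occur in all 16 pieces, and the 3 richest lie in piece 7.

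Detection followed depth. Positive beads had a median of 643 UMIs and tissue beads without piwi-1 a median of 124 UMIs. From 10 to 24 UMIs, 0.504% of tissue beads held piwi-1, and at 1600 UMIs or more 62.1% did. Between these ends the share was 1.80% at 25 to 49 UMIs, 3.72% at 50 to 99, 5.13% at 100 to 199, 12.1% at 200 to 399, 19.2% at 400 to 799 and 35.3% at 800 to 1599. Spread by depth, the last of these classes would have had 45.0% and the class of 1600 or more 70.4%, both above the observed shares and their intervals (31.7% to 39.2% and 54.8% to 68.9%).

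The level varied less than detection did. Per 10000 UMIs it ranged from 3.69 in the shallowest class (95% interval 1.36 to 8.04, on 6 piwi-1 UMIs) to 7.41 in the deepest (6.63 to 8.25). In this table the interval of the deepest class lay above those of the 4 classes from 100 to 1599 UMIs. In each other table it overlapped that at 800 to 1599 UMIs. With both runs in the original version it was 5.82 to 7.73 against 5.06 to 6.40. The deepest class includes the beads with 15 and 13 piwi-1 UMIs, and its level without them was not computed. For mat2a the deepest class was not the highest: 2.79 per 10000 UMIs against 3.70 at 800 to 1599 UMIs. When every bead was thinned to 50 UMIs, 2.45% of the 5923 tissue beads deep enough held piwi-1, compared with 11.2% without thinning.

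**Figure D2:**
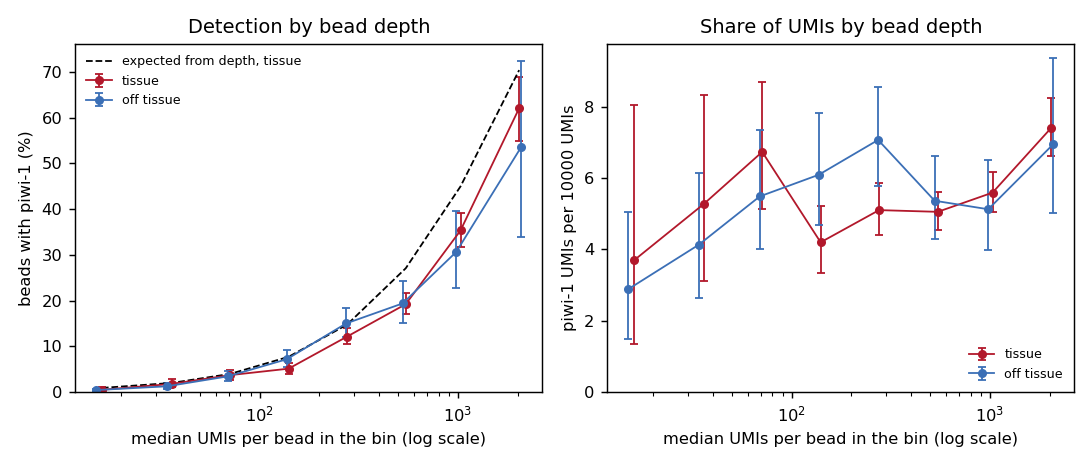
The left panel plots the percent of beads with piwi-1, and the right panel piwi-1 UMIs per 10000 UMIs, against the median UMIs per bead of each depth class on a log scale, with 95% counting intervals. On tissue beads detection climbed from 0.504% to 62.1% and stayed under the dashed expectation from depth, while the level lay between 3.69 and 7.41.

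On beads outside the called tissue, piwi-1 took about the same part of the UMIs as on tissue, with a value slightly higher off tissue in all 4 tables and intervals of the ratio that include 1. It was found on 4.38% of beads (3.91% to 4.87%), at a median depth of 36 UMIs against 148 on tissue, and made up 5.66 per 10000 UMIs (5.14 to 6.21). The level on tissue was 0.992 times that off tissue (95% exact conditional interval 0.891 to 1.11). At 50 UMIs per bead, 2.78% of beads off tissue and 2.45% of tissue beads held piwi-1, so the higher raw share on tissue was not seen at equal depth. Beads off tissue were set apart only by the coverage around them, and 28 of them held at least 1600 UMIs. These shares therefore cannot show whether piwi-1 was expressed under a positive bead, on or off tissue. In the original tables the level on tissue was lower relative to that off tissue, 0.894 times (0.796 to 1.01) with both runs and 0.891 times (0.790 to 1.01) with run 1. mat2a differed in this respect: its level on tissue was 1.27 times that off tissue (1.09 to 1.48). For each mat2a UMI there were 1.66 piwi-1 UMIs on tissue (1.52 to 1.80) and 2.11 off tissue (1.79 to 2.50). The 2 genes therefore did not keep the same ratio in both places, with intervals that met only narrowly in this table and were apart in both original tables.

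Most of the piwi-1 UMIs off tissue lay close to the sections, as did most UMIs of any gene. Of these 444 UMIs, 66.0% were on beads within 30 units of a tissue barcode and a further 23.9% between 30 and 60 units, compared with 67.4% and 19.2% of all UMIs off tissue. The unit of the deposited positions is not stated, and the nearest tissue bead was a median of 16.0 units from each tissue bead. Per 10000 UMIs, piwi-1 was at 5.54 within 30 units (4.93 to 6.21), 7.04 from 30 to 60 (5.76 to 8.51), 4.84 from 60 to 120 (3.19 to 7.04) and 3.62 beyond 120 units (2.15 to 5.72). The class from 30 to 60 units was at 6.29 without its richest bead, which held 12 piwi-1 UMIs. Beyond 120 units the versions differed most: the original table with both runs had 49 piwi-1 UMIs there, 7.51 per 10000 (5.56 to 9.93), and the Syrah-processed table had 18. On the same barcodes that held those 49, with duplicated barcodes not summed, the Syrah-processed table had 8. Any UMIs that Syrah moved to a duplicated barcode are left out of that count. A single barcode accounted for 14 of the 49, among 869 UMIs, and in the Syrah-processed table it held 2 piwi-1 UMIs among 78. Without that barcode the original level beyond 120 units was 5.44 (3.79 to 7.56).

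The piwi-1 level was also compared by the share of tissue around a bead. Where under 10% of the 50 nearest barcodes were covered, it was 5.93 per 10000 UMIs (3.76 to 8.90), and from 10% to 25% it was 5.64 (5.12 to 6.21). From 25% to 50% it was 5.63 (5.34 to 5.94) and from 50% to 75% it was 5.17 (3.80 to 6.88), with 0 beads above 75%. All 4 intervals overlap. In the original table with both runs the values were lower in each denser class, at 6.83, 5.96, 5.42 and 4.90, and with run 1 they were 7.22, 6.09, 5.53 and 5.14, again with intervals that overlap. In the same classes the share of beads with piwi-1 was 1.84%, 4.83%, 11.1% and 12.8%, while median depth went from 18 to 42, 145 and 219 UMIs. Thinned to 50 UMIs these shares were 2.61%, 2.79%, 2.46% and 2.07%, the first of them from 143 beads and the last from 183, so at equal depth the share was not higher where more of the surroundings were covered.

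A measure by RNA gave a different picture between versions. Beads were ranked by the UMIs of all other barcodes within 60 units and divided into 5 groups of equal size. From the fewest to the most surrounding UMIs, piwi-1 was at 4.36, 6.43, 5.33, 4.94 and 6.16 per 10000 UMIs, and the most surrounded group was 1.41 times the least surrounded (1.05 to 1.95). In the original table with both runs the least surrounded group was at 7.11 and the most surrounded at 5.65, a ratio of 0.795 (0.627 to 1.02). mat2a was higher in value in the most surrounded group in both versions, 1.30 times (0.892 to 1.95) and 1.35 times (0.936 to 2.01), with intervals that include 1. Within the tissue, beads were also divided into 4 equal groups by their distance from the nearest barcode off tissue. The innermost group was at 5.70 per 10000 UMIs and the outermost at 6.16, a ratio of 0.924 (0.796 to 1.08), with 0.853 (0.717 to 1.02) in the original table with both runs. For mat2a the same ratio was 1.20 (0.982 to 1.48) and 1.47 (1.16 to 1.89).

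**Figure D3:**
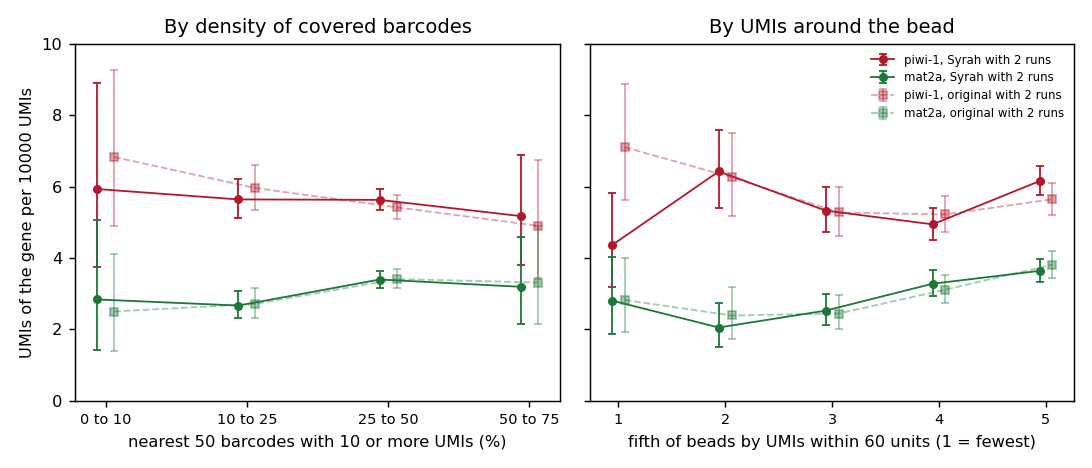
UMIs of piwi-1 (red) and mat2a (green) per 10000 UMIs, with 95% counting intervals, by the percent of the 50 nearest barcodes with at least 10 UMIs (left) and by 5 equal groups of beads ordered by the UMIs within 60 units (right), for the Syrah-processed (circles) and original (squares) tables with both runs. piwi-1 stayed between 5.17 and 5.93 over the density classes after Syrah, and the group with the fewest surrounding UMIs was at 4.36 after Syrah and 7.11 before.

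piwi-1 UMIs clumped on beads. Of all pairs of piwi-1 UMIs on tissue, 1171 were on the same bead where 389 were expected from bead depth, an excess of 3.01 times. The same excess was at least 1.5 for 61.7% of the 527 genes with at least 500 UMIs on tissue, with a median of 1.64, and 84.8% of these genes lay below piwi-1. The excess for mat2a was 1.81. For piwi-1 it was 2.90 in the Syrah-processed table with run 1, 2.82 in the original table with both runs and 2.70 in the original table with run 1. Without the richest bead it was 2.80. Further settings chosen after seeing the data gave 2.28 without the 8 richest beads and 2.50 without piece 7, so a small number of beads carried part of the value.

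Clumping extended to neighbouring beads. Within 30 units, 1300 pairs of piwi-1 UMIs lay on different beads where 720 were expected, an excess of 1.81 times. An excess of at least 1.5 at this distance was found for 20.3% of the 527 genes, whose median was 1.16, and 84.3% of them lay below piwi-1. The excess declined to 1.47 between 30 and 60 units, 1.23 between 60 and 120 and 1.04 between 120 and 240, and was 1.02 between 240 and 480. The medians over all genes in these rings were 1.10, 1.06, 1.05 and 1.03, so beyond 120 units piwi-1 was no more clumped than a typical gene. mat2a had a lower excess within 30 units (1.34) but a higher one between 120 and 240 units (1.18). The other 3 tables gave 1.84, 1.78 and 1.79 within 30 units. Summing duplicated barcodes, described at the end, gave 1.75 in the original table with both runs. With each positive bead counted once, 383 pairs of positive beads lay within 30 units where depth gave 258, a ratio of 1.49. With the expectation set inside each tissue piece, a setting chosen after seeing the data, the excess was 1.71.

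**Figure D4:**
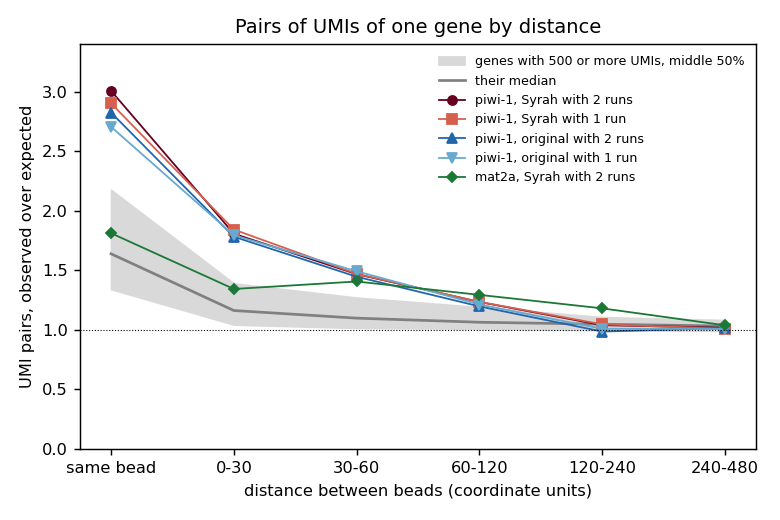
Observed over expected pairs of UMIs of the same gene, on the same bead and by distance between beads in coordinate units, for piwi-1 in the 4 tables, for mat2a, and for all 527 genes with at least 500 UMIs on tissue (grey line, median, and grey band, middle 50%). piwi-1 started at 2.70 to 3.01 on the same bead, lay above the band up to 120 units and near the median beyond.

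The positive beads themselves were closely spaced. From a positive tissue bead the nearest other one was a median of 28.4 units away, with quartiles of 17.2 and 45.7 units. From a tissue bead without piwi-1 the nearest positive bead was a median of 43.0 units away. Within 30 units, 52.8% of the positive beads had another positive bead, and 44.8% would have had one if 877 positive beads were placed by depth. Of the beads without piwi-1, 30.1% had a positive bead within 30 units and 34.0% were expected to. Within 60 units the observed and expected shares of positive beads with a positive neighbour were close, 87.3% and 85.9%. When positive beads within 30 units were linked, 414 stayed alone, 80 groups held 2 beads and 67 held 3 or more. The 27 groups of at least 5 beads held 174 beads. The largest group held 14 beads with 30 piwi-1 UMIs among 9103 UMIs and lay in piece 2.

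The tissue fell into 16 connected pieces of at least 100 beads, which together held 7002 of the 7863 tissue beads. The labels do not tie pieces to animals, so they were not treated as replicates. piwi-1 was found in all 16, and its level ranged from 3.06 to 8.66 per 10000 UMIs with a median of 5.50. The lowest was piece 6 with 44 piwi-1 UMIs (2.23 to 4.11) and the highest piece 16 with 28 (5.76 to 12.5), a ratio of 2.83 (1.70 to 4.65) between pieces picked as the extremes. The same 2 pieces were lowest and highest in all 4 tables. The pooled level of 5.62 fell outside the intervals of 7 pieces. Pieces 2, 7, 12 and 16 were above it, at 7.23, 7.95, 7.65 and 8.66, and pieces 1, 6 and 10 below it, at 4.55, 3.06 and 3.73. These intervals count each UMI as independent, although piwi-1 UMIs clumped on beads. The richest beads, with 15, 13 and 11 piwi-1 UMIs, are among the 153 piwi-1 UMIs of piece 7. Its level without them was not computed. In the original table with both runs, 2 pieces were above the pooled level of that table and 3 below, since pieces 2 and 16, at 6.09 (5.05 to 7.28) and 8.60 (5.33 to 13.2), had intervals that included it. The median depth of a bead in these 16 pieces ran from 48 to 283.5 UMIs, and its part in the differences was not tested.

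The counts of piwi-1 over pieces varied 5.23 times as much as counting error gives. Over the 527 genes the median of this value was 3.43, with 63.2% of genes below piwi-1. It grows with the number of UMIs of a gene. In terms that do not, the pieces differed by a coefficient of variation of 19.7% beyond counting error for piwi-1, 17.4% for mat2a and 15.5% for the median gene. By this measure 64.1% of the genes lay below piwi-1, so its differences between pieces stood less far from those of other genes than its clumping at short distance did.

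**Figure D5:**
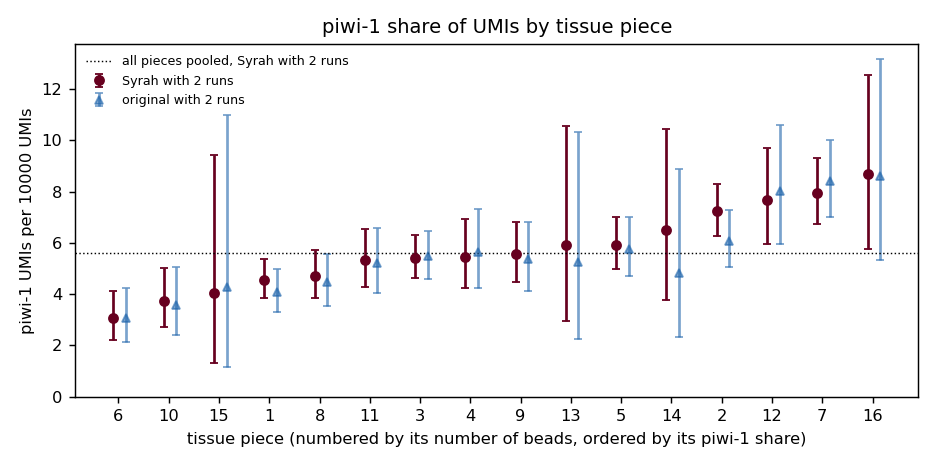
piwi-1 UMIs per 10000 UMIs in each of the 16 tissue pieces with 95% counting intervals, ordered by level, in the Syrah-processed (circles) and original (triangles) tables with both runs; the dotted line is the pooled level of 5.62. Pieces 6, 10 and 1 lie below the line with their intervals in both tables, and pieces 12 and 7 above it.

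Beads with piwi-1 were next compared with tissue beads without it for the other genes of the study's list. The paper took its known cell type markers from an atlas of single-cell RNA sequencing. The list marks its genes as differentially expressed, and whether these beads had a part in choosing them is not stated. Its direction was therefore not taken as independent evidence. The ratio given is the part a gene took of the UMIs on positive beads over the part it took on the remaining tissue beads. Of the 20 stem cell genes, 6 (30%) reached a ratio of 1.5, compared with 22.9% of the 6306 genes with at least 10 UMIs on positive beads, so the stem cell list was near the background by this count. With the beads without piwi-1 weighted to the same depth classes, 5 of the 20 (25%) did, against 25.9% of all genes. The minimum on positive beads favours genes that are high there, and the median ratio over all 6306 genes was 1.12. The median was 1.18 for the stem cell list. With depth classes weighted alike, the medians were 1.13 for the stem cell list and 1.11 for all genes, so they were close. Counting intervals were computed only for the ratios without this weighting. They lay above 1 for 16 genes of the list, below 1 for 1 and included 1 for 3. Over all 6306 genes 15.2% of the intervals lay above 1 and 7.53% below, and over the 2474 genes with at least as many UMIs as the scarcest gene of the list 18.1% lay above 1. Such a call depends on the number of UMIs, and the list holds some of the most abundant genes.

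Among the 3 stem cell genes with the most UMIs, which the files give no name, SMED30029763 stood out. It had 39218 UMIs on tissue and was 1.94 times as high on beads with piwi-1 (1.90 to 1.98). SMED30013735 was at 1.14 (1.11 to 1.17) and SMED30035193 at 1.04 (1.02 to 1.07). With depth classes weighted alike, SMED30029763 was at 2.16, SMED30013735 at 1.07 and SMED30035193 at 0.950. The other 5 genes at 1.5 or more had 96 to 1267 UMIs. Of the 14 intestine genes 0 reached 1.5, and their ratios ran from 0.550 to 0.925 with a median of 0.709. The intervals of 12 of them lay below 1, which was so for 20.2% of the 1859 genes with at least as many UMIs as the scarcest of this list. The 2 most abundant, SMED30018252 and SMED30035609, were at 0.629 (0.608 to 0.651) and 0.627 (0.588 to 0.667). SMED30016196, which is in both lists, was at 0.981, and at 1.08 with depth classes weighted alike.

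piwi-1 and mat2a met on fewer beads than depth gives. Both were found on 148 tissue beads where 248 were expected from depth, if each were spread independently. Both genes clump on their own, which this expectation leaves out. Pairs of a piwi-1 and a mat2a UMI on the same bead were 0.795 times the expectation, and 0.881 times on beads within 30 units. In the other 3 tables the same-bead value was 0.809 to 0.822. Over all 526 genes paired with piwi-1 its median was 1.13. It was 0.748 for the median of 10 intestine genes with at least 500 UMIs, with a range of 0.568 to 0.930, and 1.28 for 17 stem cell genes, with a range of 1.04 to 2.04. Among these genes the ranges of the 2 lists did not overlap, but over the whole lists they did, since the intestine gene SMED30020778, named after its value was seen and with 331 UMIs, was at 1.07. Per 10000 UMIs, mat2a was at 2.62 on beads with piwi-1, at 3.25 on beads without it that had a positive bead within 30 units and at 3.98 on the remaining tissue beads. Their median depths were 643, 160 and 110 UMIs.

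Likeness over the section was measured in square tiles of 200 units, as the Pearson correlation of a gene's share of UMIs with that of piwi-1 over 243 tiles. Tiles share 1 library and differ in depth, and piwi-1 was at 0 in 54 of them, so the values are descriptions. Over 526 genes the median correlation was -0.01, and 5% of genes were above 0.15. SMED30029763 was the most like piwi-1, with r = 0.49. The next was SMED30025105, in neither list, with r = 0.24, which was 0.09 in tiles of 100 units. Bead by bead it was not alike, with a ratio of 0.829 on beads with piwi-1. Its pairs with piwi-1 were 0.950 times the expectation on the same bead and 0.921 times within 30 units. The medians of these pair values over the 526 genes were 1.13 and 1.07. SMED30032778 (r = -0.24) and SMED30013161 (r = -0.21) were the least like piwi-1. Of the 17 stem cell genes with enough UMIs, 15 had a positive r and 3 were among the 20 most alike, compared with 248 of all 526 genes with a positive r. Of the 10 intestine genes, 1 had a positive r. The order at its ends depended on tile size. In tiles of 100 units SMED30029763 was again the most alike (r = 0.56), but in tiles of 400 units it was not among the 2 most alike (r = 0.32), and SMED30032778 was again among the 2 least alike (r = -0.31). The pairs of SMED30029763 with piwi-1 were 2.04 times the expectation on the same bead, a value exceeded by 3 of the 526 genes, and 1.66 times within 30 units, exceeded by 1. Its own excess was 1.90 on the same bead and 1.58 within 30 units.

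Processing with Syrah raised the number of piwi-1 UMIs from 1495 to 1896 over all barcodes with both runs, by 26.8% (18.4% to 35.8%), and from 1398 to 1784 with run 1, by 27.6% (18.9% to 37.0%). The versions share reads, so these intervals are only a guide. Every gene that started from 1000 UMIs or more gained UMIs (100% of 285), with a median of 25.7%, and 69.8% of them gained less than piwi-1. The share of piwi-1 among all UMIs was 1.01 times that of the original version (0.941 to 1.08). Positive barcodes went from 995 to 1223, of which 794 were positive in both versions, 429 only after Syrah and 201 only before it. Adding the second run gave 6.94% more piwi-1 UMIs in the original version and 6.28% more after Syrah. UMIs of all genes rose by 8.58% and 8.04%. The intervals of the piwi-1 gains include 0, but they treat the counts as independent. The tables with both runs contain run 1, so these intervals do not measure the gain. All barcodes positive in run 1 stayed positive, and 41 more were positive in each version.

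The UMIs also moved between barcodes. Barcode by barcode, 719 piwi-1 UMIs were gained and 318 lost, and with duplicated barcodes summed 492 were gained and 91 lost. Duplicated barcodes here are pairs that differ in 1 base and lie less than 10 units apart. There were 15434 such pairs on the puck, and in the original table with both runs 11 of them had piwi-1 UMIs on both members. The 3 pairs with the most piwi-1 UMIs on the poorer member are printed to show the split, with the differing base in capitals.
Pair 1, richer member: caTaacgcaagccg
Pair 1, poorer member: caAaacgcaagccg
Pair 2, richer member: cgcccTgcaactcc
Pair 2, poorer member: cgcccGgcaactcc
Pair 3, first member: acacgaacgttcaC
Pair 3, second member: acacgaacgttcaA
In pair 1 the members lay 8.13 units apart and held 9 and 2 piwi-1 UMIs in the original table, and the second held all 9 after Syrah. In pair 2, 6.86 units apart, they held 3 and 2, and the second held 3 after Syrah. In pair 3, 7.52 units apart, both held 2, and the second held 5 after Syrah. In each pair Syrah left UMIs on the member printed second and 0 on the other. By the paper's account, Syrah selects 1 barcode of each duplicated group and redirects the rest to it. In the Syrah-processed table with both runs, 0 of the 15434 pairs had UMIs on both members. The joint piwi-1 count was lower in pairs 1 and 2 and higher in pair 3.

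A large part of the gain came from beads that the original version hardly had. Beads whose original UMIs, with duplicates summed, were under 10% of their Syrah-processed UMIs numbered 2194, and they held 318 piwi-1 UMIs after Syrah and 4 before. Their piwi-1 level was 6.55 per 10000 UMIs (5.85 to 7.31), above the 5.41 (5.14 to 5.69) on the 12551 beads with at least 50% of their UMIs in the original version. Those beads held 1516 piwi-1 UMIs after Syrah and 1413 before. The median depths were 81 and 72 UMIs. Beads with 13, 7 and 7 piwi-1 UMIs, among the richest on tissue, were in the class under 10%. The level of that class without them was not computed. On the remaining 318 beads, in between, 8 piwi-1 UMIs became 31.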

How the data were processed

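The 4 deposited tables hold whole-number UMI counts per gene and barcode, which the authors made with the Broad WARP Slide-seqV2 pipeline from the original or Syrah-processed reads of 1 library. A further deposited table gives barcode positions. The methods name the schMedS3 genome, while the tables carry SMED30 identifiers. The version and runs of a table were read from its name. No values were normalized and 0 columns of values were left unused.

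Tools were scipy 1.17.1, numpy 2.4.6, pandas 2.3.3 and matplotlib 3.10.9 under python 3.11.15. Intervals at 95% are exact Poisson, binomial (Clopper-Pearson) or conditional, and cover counting error only. Expected pairs of UMIs and expected numbers of positive beads spread the UMIs of a gene over beads in proportion to their total UMIs. For pairs of positive beads counted once, the share was instead set so that 877 positive beads, the observed number, were expected. Thinning used the exact hypergeometric chance for each bead. Pieces were tissue barcodes linked within 40 units. No p-values were computed. Pair excess, marker ratios and thinning were tested on simulated data. Alternatives covered the UMI minimum, tissue limit, table, thinning, duplicated barcodes, richest beads, links and tile size.

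The genes named were piwi-1, mat2a, the most abundant genes of the study's lists, SMED30016196, and the 2 most and 2 least like piwi-1 over tiles of at least 500 UMIs. The gene and the lists were chosen with earlier results of these data known.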

Additional observations from a re-analysis of the deposited data

Results flagged for a closer look

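Barcodes with fewer than 10 UMIs, which were not counted as beads on or off tissue, also carried piwi-1. They entered the piwi-1 change with Syrah over all barcodes, the sums of surrounding UMIs and the lowest UMI minimum among the alternatives. In the Syrah-processed table with both runs, 31 piwi-1 UMIs lay on 18455 such barcodes among 48467 UMIs. This was 6.40 per 10000 UMIs (4.35 to 9.08), and the interval includes the level on tissue beads of 5.61.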

How the results depend on the processing

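Of 73 alternatives, 58 left the value inside the 95% interval of the reported one, or within 1.5 times of it where no interval exists, and 15 did not. The percent of tissue beads with piwi-1 (11.2%) depended on depth: it was 8.02% from 1 UMI per bead, 14.4% from 50 and 17.2% from 100, 8.39% and 12.8% at tissue limits of 10% and 50%, 9.90% and 9.86% in the original tables with both runs and run 1, and 1.28%, 2.45% and 4.58% when thinned to 25, 50 and 100 UMIs. The level on tissue was 5.17 at the limit of 50%, where 218 beads were left. In place of tissue over off tissue (0.992), the most over the least surrounded of 5 bead groups, a contrast added after seeing the data, gave 1.41. At a ratio of 2, 0% of stem cell genes were counted, against 7.98% of all genes tested. Of the 4 genes at the ends of the likeness order, 1 kept its place in tiles of 100 and 1 in tiles of 400 units. The causes were not tested. Over their alternatives the same-bead excess ran from 2.28 to 3.12, the neighbour excess from 1.49 to 1.84, the median spacing from 28.4 to 31.5 units, the spread over pieces from 4.55 to 5.58 and the change with Syrah from 26.8% to 29.9%. Pieces at the limit of 50% were not run because 0 were large enough. No paired analysis was possible because the runs are of the same library and no test was made.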
